A study of Mus musculus with 4 samples.

Results

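The comparison described here sets the liver array of day 5 after an adenovirus carrying Med1 (Ad-Med1) against the liver array of day 3 after the same virus. Probes entered when their detection p, the chance that a blank probe gives so high a signal, was under 0.01 on at least 1 of those arrays, which left 15883 of the 45281 probes. They represent 9300 of the 19057 genes that a probe names, on 2 of the 4 arrays of the series. Each time point is a single array, so every difference below is a description of a pair of arrays and carries no test.

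All animals were Med1fl/fl mice, homozygous for floxed Med1 alleles, of the C57BL6/J strain and 5.5 weeks old when treated. The labels name no Cre recombinase for any of the 4 livers. One pair of livers was taken at day 5 and day 3 after Ad-His-Med1 given into the tail vein. The other pair was taken at day 5 and day 3 after Ad-LacZ, a virus that carries the bacterial beta-galactosidase gene and serves as the control. Nothing in the labels says whether an array holds RNA of 1 mouse or of a pool, or which sex the mice were. The promoter that drives the viral Med1 is not stated in the sources used, and no uninjected liver was analysed here.

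Med1 is a subunit of Mediator, the large complex through which transcription factors, including nuclear receptors, act on RNA polymerase II. Hepatocytes of an adult liver rarely divide, but they re-enter the cell cycle after tissue loss or a mitogenic stimulus, passing through DNA replication and then mitosis within a few days. Intravenous adenovirus is taken up largely by the liver, where Kupffer cells, the resident macrophages, clear part of it, and where interferons and later T cells respond to infected hepatocytes. A comparison of a later with an earlier day after one virus therefore looks at how both kinds of programme stood at each time.

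In outline, genes of mitosis and replication-dependent histones were lower on the day 5 array than on the day 3 array, while interferon-response genes, MHC class II genes, chemokines and markers of Kupffer cells were higher, and several T cell markers were detected at day 5 alone. Haemoglobin transcripts and several transcripts of male-biased liver genes were higher at day 5 too. Hepatocyte plasma proteins, oxidative phosphorylation and cytosolic ribosomal proteins lay close to 0. The whole set was centred near 0, with a median difference of -0.04 over genes on the log2 scale (day 5 minus day 3, as for every difference below) and a median size of 0.25. Among probes the lower and upper quartiles of the difference were -0.27 and 0.24.

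A 2-fold higher level at day 5 was seen for 471 of 9300 genes (5.06%), and a 2-fold lower level for 271 (2.91%). Over probes, 743 of 15883 were 2-fold higher (4.68%) and 443 were 2-fold lower (2.79%). With a looser limit of 1.5-fold, 916 genes were higher (9.85%) and 863 lower (9.28%), and these are the shares beside which the gene groups below are to be read. Where several probes of a 2-fold gene were measured, they had the same direction in 97 of 98 genes on the higher side and in 70 of 70 on the lower side. These counts include the probe by which each gene was chosen, whose direction was thus fixed. The same share over all genes with several probes was not computed. Of the higher genes 193 were not detected at day 3, and of the lower genes 77 were not detected at day 5. For such genes a fold is a lower bound, written as "at least", taken against the higher of the dim probe's own value and the lowest signal of any detected probe on that array. With that bound 347 genes remained 2-fold higher and 215 remained 2-fold lower. Dim genes differed more often: of 3100 genes in each class, 13.4% of the dimmest were 2-fold apart, 6.97% of those of middle signal and 3.55% of the brightest. Of the 2100 probes in the set without a single gene symbol, 98 were 2-fold higher and 50 were 2-fold lower, and they are not named here.

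**Figure D1:**
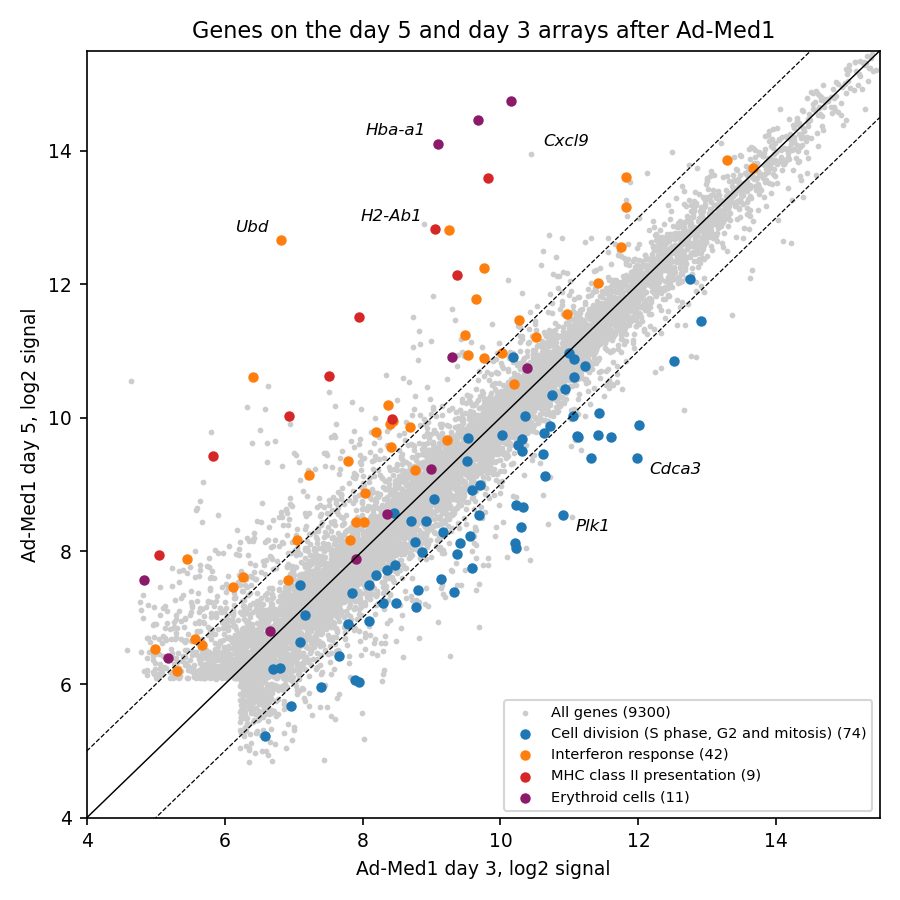
Each point is 1 gene, with its normalised log2 signal on the Ad-Med1 day 5 array (vertical axis) against the Ad-Med1 day 3 array (horizontal axis); dashed lines mark a 2-fold difference and colours mark 4 gene groups. Most cell division genes lie below the diagonal, while interferon and MHC class II genes and 10 of the 11 erythroid genes lie above it.

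The rule's own limit touched few probes. The 98 probes just inside it, with a lowest detection p of 0.00962, had a median difference of -0.32 and a range from -1.21 to 1.22. The 51 probes just outside, at 0.0107, had a median of -0.16 and a range from -1.02 to 1.003.

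Before normalisation, mean intensity after Ad-Med1 was 968 at day 5 and 925 at day 3, while after Ad-LacZ it was 475 at day 5 and 350.2 at day 3. Detected probes numbered 15294 and 14752 after Ad-Med1, and 14062 and 12899 after Ad-LacZ. Over the 15883 probes the Ad-Med1 arrays correlated at 0.962 with each other, above the correlations of the other array pairs, which ran between 0.870 and 0.937. Those probes were kept by detection on an Ad-Med1 array alone, so this order may be set in part by that choice. The hepatocyte list, 12 genes with a member probe, had summed linear signals of 272628 and 258927 on the Ad-Med1 arrays and 279598 and 275242 on the Ad-LacZ arrays, and its defining markers Ttr, Apoa1, Apob and Trf (transferrin) were detected on all 4. The Alb (albumin) probe was dim on every array, at 6.31 and 6.95 after Ad-Med1 and 7.59 and 5.84 after Ad-LacZ, and undetected on the last. Other abdominal tissue was looked for with pancreas, fat, kidney, stomach and adrenal genes. Only 4 of the 25 such genes on the array had a member probe, and the one past 1.5-fold was the elastase gene Cela1, lower at day 5 (9.36 at day 5 against 10.46 at day 3).

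Med1 RNA was read with 5 probes, and 3 of them entered the set. Probe ILMN_2658227 reached 12.22 at day 5 against 11.16 at day 3 after Ad-Med1 (log2 signals), while neither Ad-LacZ array detected it (6.38 at day 5, 5.94 at day 3). It was 2.09-fold higher at day 5. Probe ILMN_3106388 read 9.66 at day 5 and 9.35 at day 3, beside 7.47 and 7.27 after Ad-LacZ, a difference of 0.31. Probe ILMN_1220563 went the other way, with 9.45 at day 5 and 9.97 at day 3, beside 9.25 and 7.98 after Ad-LacZ, a difference of -0.51. The probes of Med1 therefore gave no single direction between the days. Which of them lie in the stretch that the virus carries is not stated in the sources used. Over the 28 Mediator subunits with a member probe, each read with its brightest probe (for Med1 ILMN_1220563), none differed by 1.5-fold, and their median was -0.19, equal to the -0.19 of Ad-LacZ. Med23 and Med16, subunits of the tail module, lay at -0.51 and -0.49, and Cdk8 and Cdk19, the kinases that associate with the complex, at 0.16 and 0.22.

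Genes of G2 and mitosis were lower at day 5 almost without exception. Of 48 such genes on the array 35 had a member probe, 34 of them were at least 1.5-fold lower (33 with undetected signals at their bound) and none was 1.5-fold higher. Their median was -1.52, a 2.87-fold lower level, and their range ran from -2.58 to -0.45. In bulk liver a smaller number of dividing cells and less of these RNAs per cell cannot be told apart, which holds for every cell-type statement below as well. All 35 were detected at day 3 and 30 at day 5.

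Cdca3, which helps to bring on the entry into mitosis, had log2 signals of 9.40 at day 5 and 11.98 at day 3 after Ad-Med1, beside 10.56 and 9.14 after Ad-LacZ. Plk1, a kinase that acts through spindle assembly and cytokinesis, had 8.54 at day 5 and 10.91 at day 3, beside 9.80 and 7.56 after Ad-LacZ. Cdc20, the activator of the anaphase-promoting complex, had 9.89 at day 5 and 12.01 at day 3, beside 10.53 and 9.01. In all 3 genes the Ad-Med1 day 3 array was the highest of the 4, and the day 5 array was 5.97-fold, 5.15-fold and 4.33-fold lower than it, with the day 5 level of Ad-Med1 under the day 5 level of Ad-LacZ. Aurka, the centrosomal Aurora kinase, was 4.55-fold lower (8.04 at day 5 against 10.23 at day 3), and Knstrn, a kinetochore and spindle protein, 4.27-fold lower (8.12 against 10.22). Tpx2, which activates Aurora A on the spindle, was 3.82-fold lower. Cdca2, a nuclear protein that directs a phosphatase to chromatin at the exit from mitosis, was 4.75-fold lower and Arhgef39, a guanine nucleotide exchange factor, 5.90-fold lower.

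Smaller differences stood at the other end of the mitotic list. Top2a, the topoisomerase that untangles sister chromatids, had 9.50 at day 5 and 10.32 at day 3, a 1.76-fold lower level. Stmn1, which destabilises microtubules, was 2.23-fold lower. Kif23, a kinesin of the midzone, was the single member inside 1.5-fold, at -0.45, and it was also the member whose Ad-LacZ day 3 signal (12.12) was the highest of the 4 arrays. Across the list the Ad-Med1 day 3 array was the highest of the 4 in 33 of 35 genes and the Ad-LacZ day 3 array the lowest in 32. The Ad-LacZ pair had a median of 1.42, day 5 above day 3, but only 16 of the 35 were detected on its day 3 array, so that many of those differences are taken against background.

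Genes of S phase and DNA replication were lower to a smaller degree. Among the 39 with a member probe 18 were at least 1.5-fold lower and 1 was 1.5-fold higher, with a median of -0.55. Pole, the catalytic subunit of the leading-strand polymerase, had 7.16 at day 5 and 8.77 at day 3, a 3.06-fold lower level. Rfc5, of the clamp loader, was 2.21-fold lower, Gins2, of the replicative helicase, 2.11-fold lower and Fen1, the flap endonuclease, 2.04-fold lower. The member that went the other way was Mcm6, a subunit of the helicase core, with 10.91 at day 5 and 10.19 at day 3 after Ad-Med1, beside 8.87 and 7.08 after Ad-LacZ. All 4 of its probes were higher at day 5, between 0.57 and 1.78, but 1 of them was not detected at day 3 and gave -0.10 at its bound. Its neighbours in the same ring were not: Mcm7 lay at -0.88, Mcm5 at -0.85, Mcm2 at -0.26, Mcm3 at -0.13 and Mcm4 at -0.03. Pcna, the sliding clamp, lay at -0.25. The replication list thus ran from 1.65-fold higher to 3.06-fold lower, while 33 of 35 mitotic genes were at least 2-fold lower (31 at the bound).

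Histones whose genes are transcribed during DNA replication followed the mitotic genes. Of 38 with a member probe 32 were at least 1.5-fold lower (31 at the bound) and none was higher, with a median of -1.32 (-1.22 at the bound). H3c6 had 8.52 at day 5 and 11.03 at day 3, beside 10.15 and 7.63 after Ad-LacZ, a 5.72-fold lower level. H3c4 had 8.40 and 10.68, a 4.87-fold lower level, and H2bc21 had 8.04 and 10.36, 5.00-fold lower, although its second probe gave only -0.67. H2bc8 was at least 3.76-fold lower, not being detected at day 5. Nearest to level were H2ac7 (-0.32), H3c14 (-0.35) and H2ac24 (-0.39), and H4c14 at 0.11 had no detected signal at day 3. Histone genes are near-identical in sequence, so that a probe may read more than 1 of them. The Ad-Med1 day 5 array was the lowest of the 4 in 19 of these 38 genes, in which it differs from the mitotic list, where it was lowest in 2 of 35.

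Cyclins and inhibitors did not move as a block. Of the 13 G1 cyclins and E2F factors, Ccnd1 (cyclin D1) was 1.74-fold lower and Ccne1 (cyclin E1) 1.69-fold lower, Cdk4 was 1.54-fold higher (0.09 by its second probe), and E2f1 lay at -0.50. Among 22 cell cycle inhibitors and p53 targets the median was -0.01, with 2 genes 1.5-fold higher and 5 lower. Cdkn1a, the p21 inhibitor, had 11.33 at day 5 and 11.16 at day 3, and Mdm2, the ligase that degrades p53, had 10.63 and 10.56. Trp53inp1, a p53-induced protein, was 2.29-fold higher, while Gtse1, which is itself expressed in G2, was 3.78-fold lower. Ccng1 and Zmat3, further p53 targets, lay at 0.04 and 0.11.

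The promoters of the mitotic genes are shown because 34 of the 35 genes lay on the same side of 1.5-fold. Promoter sequences, written 5′ to 3′ along each gene's own strand, come from RefSeq with the GRCm38.p6 build, and 28 of the 35 genes matched the table. Searched on both strands of the 250 bases before each start were CCAAT, the letters bound by NF-Y, and TTTGAA, the cell cycle homology region bound by the DREAM and MuvB complexes. The promoters printed were taken from those that hold both motifs. The 2 motifs do not overlap in the stretches printed. Capitals mark them.
Cdc20, chr4:118437344-118437416, minus strand: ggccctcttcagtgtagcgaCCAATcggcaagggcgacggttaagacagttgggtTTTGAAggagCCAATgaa
Cdkn3, chr14:46760372-46760531, plus strand: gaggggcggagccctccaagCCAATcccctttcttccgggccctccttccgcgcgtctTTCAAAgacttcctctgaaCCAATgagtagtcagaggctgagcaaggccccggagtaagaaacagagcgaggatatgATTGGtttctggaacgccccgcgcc
CCAAT stood in 20 of the 28 mitotic promoters (71.4%), in 28 of 33 histone promoters (84.8%), in 40.8% of promoters of the genes in the set and in 37.5% of all 27025 promoters of the table. TTTGAA stood in 11 of the 28 (39.3%) and in 14 of 33 histone promoters (42.4%), against 13.3% of the genes in the set and 18.3% of all promoters. Among the 271 genes 2-fold lower at day 5, of which 215 had a promoter, 54.4% held CCAAT and 26.0% TTTGAA; among the 2-fold higher genes, 367 with a promoter, the shares were 37.6% and 16.6%. Cdkn3, a phosphatase that acts on cyclin-dependent kinases, was 3.71-fold lower (9.71 at day 5 against 11.60 at day 3). A match is a description of the letters and not evidence of binding.

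**Figure D2:**
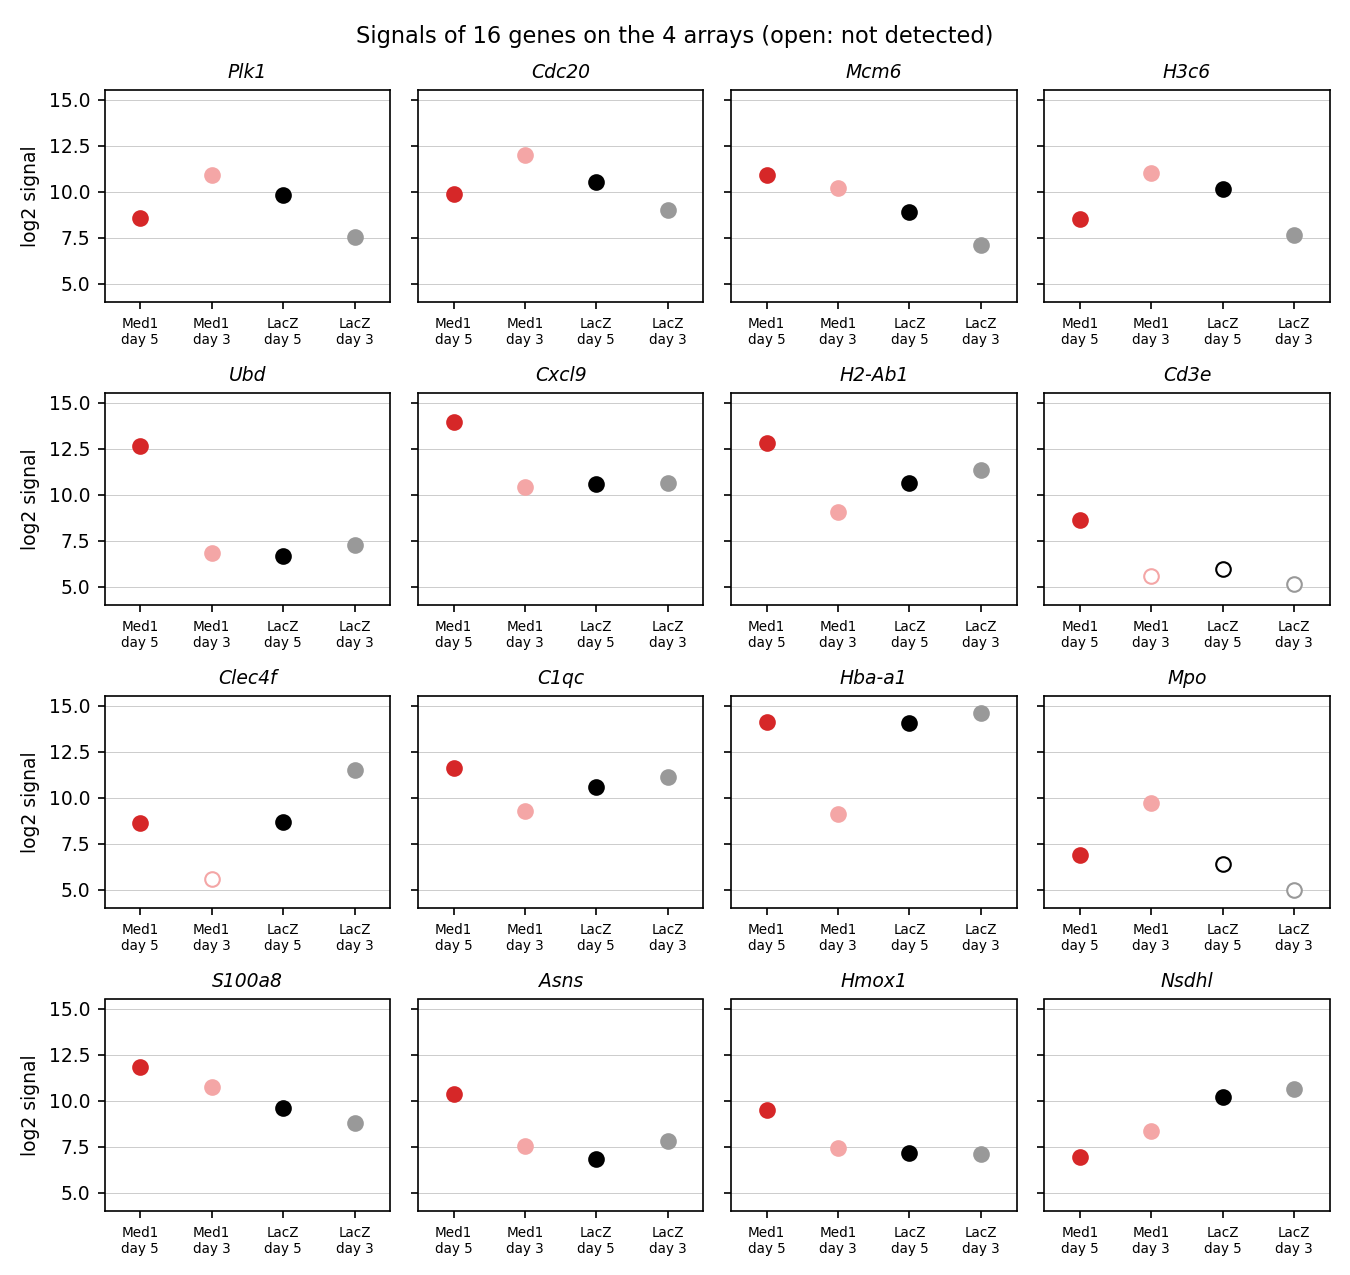
Normalised log2 signals of 16 genes on the 4 arrays, with Ad-Med1 day 5 and day 3 left of Ad-LacZ day 5 and day 3; open circles were not detected. Plk1, Cdc20 and H3c6 peak on the Ad-Med1 day 3 array, Ubd, Cxcl9 and H2-Ab1 on the Ad-Med1 day 5 array, and Hba-a1 is low on the Ad-Med1 day 3 array alone.

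Genes of the interferon response were higher at day 5. Of 51 on the array 42 had a member probe, 33 were at least 1.5-fold higher (29 with undetected signals at their bound) and none was lower, with a median of 1.16 (1.13 at the bound). All 42 were detected at day 5 and 36 at day 3, so 6 entered through day 5 alone and had to lean to the higher side. Ubd, which encodes the ubiquitin-like modifier FAT10 and responds to interferon gamma and TNF, had 12.66 at day 5 and 6.81 at day 3 after Ad-Med1, beside 6.64 and 7.26 after Ad-LacZ. That 57.4-fold difference was the largest of the set when undetected signals are put at their bound, and the other 3 arrays lay within 1 log2 unit of each other. Tgtp1, a GTPase of the T cell specific family, had 10.61 at day 5 and 6.41 at day 3, 18.4-fold higher. Gbp2b, a guanylate-binding protein that stood outside the list, had 12.91 and 8.89, 16.2-fold higher.

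Guanylate-binding proteins and immunity-related GTPases attack the compartments of intracellular pathogens and respond to interferon gamma. Gbp2 was 11.9-fold higher (1.43 by its second probe, on the log2 scale), Gbp3 5.60-fold, Ifi47 4.36-fold, Gbp7 3.79-fold and Igtp 3.43-fold, but Irgm1, a GTPase of the same family, was the lowest of the whole list at 0.08. Antiviral genes that respond to type I interferon were also spread out. Isg15, a ubiquitin-like modifier, was 3.51-fold higher, Oasl2 3.38-fold and Ifit2 2.94-fold, whereas Mx2 lay at 0.35, and Irf9 and Stat2, which carry the interferon signal to the nucleus, at 0.30 and 0.45. The Ad-Med1 day 5 array was the highest of the 4 in 33 of 42 genes. In the Ad-LacZ pair the list had a median of 0.58, also with day 5 above day 3.

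Of the interferon-response promoters 31 were in the RefSeq table, and GAAANNGAA, the core of the interferon-stimulated response element, was searched on both strands. It is shown for 3 of the genes just described, in capitals, GRCm38.p6.
Tgtp1, chr11:48992295-48992343, minus strand: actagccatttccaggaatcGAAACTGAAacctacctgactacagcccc
Gbp2, chr3:142620585-142620633, plus strand: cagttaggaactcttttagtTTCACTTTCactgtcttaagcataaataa
Gbp7, chr3:142530264-142530312, plus strand: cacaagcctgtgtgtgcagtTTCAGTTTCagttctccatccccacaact
The motif stood in 17 of the 31 (54.8%), in 17.2% of the promoters of genes 2-fold higher at day 5, in 7.91% of those 2-fold lower, in 7.56% of genes in the set and in 8.18% of all promoters.

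Antigen presentation was higher in both of its branches, and more so in class II. All 9 MHC class II genes with a member probe, of 11 on the array, were more than 2-fold higher, with a median of 3.10 (an 8.59-fold level) and a range from 1.55 to 3.78. Of the 9, 2 entered through day 5 alone, and all 9 remained 2-fold higher at the bound. H2-Ab1, a class II chain, had 12.82 at day 5 and 9.04 at day 3 after Ad-Med1, beside 10.65 and 11.36 after Ad-LacZ. Cd74, the invariant chain that guides class II molecules, had 13.59 and 9.82, beside 11.05 and 11.79. H2-Eb1 had 11.50 and 7.94, beside 9.73 and 10.41. These genes were 13.7-fold, 13.7-fold and 11.8-fold higher at day 5, the day 5 array being the highest of the 4 and the Ad-Med1 day 3 array the lowest. Ciita, the coactivator on which class II transcription depends, was detected at day 5 alone (7.94) and was at least 3.30-fold higher. The chaperones that load peptides followed, with H2-DMa 8.59-fold and H2-DMb1 8.51-fold higher, and the protease Ctss was lowest at 2.92-fold. The list's summed linear signal was 31539 at day 5 and 3079 at day 3 after Ad-Med1, and 7802 and 9231 after Ad-LacZ. Its median in the Ad-LacZ pair was -0.50.

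Class II promoters are built around X and Y boxes, and the Y box carries CCAAT. Only those letters were searched, in either orientation, and put in capitals, so a marked match need not be a Y box. The promoters printed were taken from those that hold the letters.
H2-Eb1, chr17:34305788-34305856, plus strand: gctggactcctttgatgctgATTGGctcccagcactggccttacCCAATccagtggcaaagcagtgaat
H2-DMb2, chr17:34145139-34145183, plus strand: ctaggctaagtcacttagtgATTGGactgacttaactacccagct
The motif stood in 5 of the 6 class II promoters found (83.3%), against 40.8% of promoters of the genes in the set. The same letters were thus present in a list that was higher at day 5 and in the mitotic list that was lower.

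MHC class I and the immunoproteasome had 11 of 18 genes at least 1.5-fold higher and none lower, with a median of 0.81. Psmb8, an immunoproteasome subunit, had 12.73 at day 5 and 10.71 at day 3, 4.06-fold higher, while Psmb10 and Psmb9 were 3.23-fold and 3.05-fold higher. H2-M3, which presents formylated peptides, was 3.24-fold higher, and Tap1, of the peptide transporter, 2.33-fold. The classical heavy chains and their partner differed little: H2-D1 lay at 0.08, B2m at 0.11 and H2-K1 at -0.36, the lowest of the list.

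Chemokines and adhesion molecules were at least 1.5-fold higher in 15 of 20 genes (14 at the bound) with a median of 1.23 (0.90 at the bound). All 20 were detected at day 5 and 14 at day 3, so 6 entered through day 5 alone and had to lean to the higher side. Cxcl9, a ligand that draws activated T cells through the receptor CXCR3, had 13.95 at day 5 and 10.44 at day 3 after Ad-Med1, beside 10.58 and 10.62 after Ad-LacZ. The day 5 array stood 11.4-fold above an otherwise even row. Cxcl10, a ligand of the same receptor, had 10.48 and 6.64, beside 8.11 and 7.37, 14.3-fold higher. Ccl4 and Ccl5, chemokines that draw leukocytes, were 7.58-fold and 4.93-fold higher, and Vcam1, an endothelial adhesion molecule, 4.36-fold. Cxcl12 (-0.03) and Ccl9 (-0.40) did not follow.

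Markers of immune cells moved with these groups, and their part in the interferon, MHC and chemokine values was not tested. Of 26 T and NK cell markers on the array 15 had a member probe, all of them detected at day 5 and 5 at day 3, so 10 entered through day 5 alone and had to lean to the higher side. At least 1.5-fold higher were 11 (10 at the bound), with a median of 1.90, or 0.94 at the bound. Over the genes detected on both arrays the median was 0.20. The summed linear signal of the list was 7584 at day 5 and 3809 at day 3 after Ad-Med1, and 3592 and 3558 after Ad-LacZ. Cd3g, of the T cell receptor complex, was detected at day 5 (9.04) and not at day 3 (5.69), at least 7.08-fold higher. Cd3d was at least 5.77-fold and Cd3e at least 5.39-fold higher on the same pattern, and Klrd1, an NK cell receptor, at least 4.63-fold. Thy1 was 6.58-fold higher. Zap70 (0.20), Prf1 (-0.30) and Cd8b1 (0.01) did not follow, although a second Cd8b1 probe gave 3.31. Of 11 B and plasma cell markers on the array only Cd79b passed, at 6.28 on day 5 and undetected at day 3.

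Kupffer cell markers were higher at day 5 and low on the Ad-Med1 day 3 array. Among 19 with a member probe 15 were at least 2-fold higher (11 at the bound) and none 1.5-fold lower, with a median of 1.80 (1.38 at the bound). All 19 were detected at day 5 and 11 at day 3, so 8 entered through day 5 alone. Clec4f, a lectin particular to Kupffer cells, had 8.61 at day 5 and was not detected at day 3 (5.59) after Ad-Med1, beside 8.68 and 11.51 after Ad-LacZ. Timd4, a receptor for dying cells, was also undetected at day 3 and was at least 2.61-fold higher at day 5. Vsig4, a receptor for complement-coated particles, did the same with at least 2.93-fold. Marco, a scavenger receptor, was at least 4.29-fold higher. C1qc, a subunit of complement C1q, had 11.63 and 9.29, beside 10.61 and 11.14, 5.05-fold higher, with C1qb 4.83-fold and C1qa 3.90-fold. The Ad-Med1 day 3 array was the lowest of the 4 in 15 of the 19 genes, whereas the Ad-LacZ day 3 array was the highest in 10, and the Ad-LacZ median was -0.57. The list's summed linear signal was 40242 at day 5 and 23238 at day 3 after Ad-Med1, and 34028 and 41563 after Ad-LacZ.

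Monocyte and macrophage markers had 13 of 18 genes at least 1.5-fold higher (12 at the bound) and 1 lower, with a median of 1.19. Ms4a6d was 4.90-fold higher (9.90 at day 5 against 7.61 at day 3), the pattern receptor Tlr2 4.30-fold, Lgals3 (galectin-3) 3.88-fold and Ly6c1 3.29-fold. Cx3cr1, a receptor for fractalkine, was 1.58-fold lower and Trem2 lay at -0.43. Neutrophil genes split in direction. Mpo, Elane, Ctsg and Prtn3, enzymes of the primary granules that are made by promyelocytes, were lower. Mpo had 6.86 at day 5 and 9.69 at day 3, 7.10-fold lower, and neither Ad-LacZ array detected it. Elane was at least 2.75-fold, Ctsg at least 1.52-fold and Prtn3 2.83-fold lower. Several genes of later stages were higher, among them Ltf (lactoferrin, 2.91-fold), Ngp (2.40-fold), S100a8 (2.20-fold), S100a9 (2.01-fold) and Camp (2.001-fold), together with the chemoattractant receptor Fpr2 (5.50-fold). Lcn2, of the same list, lay at 0.44, inside 1.5-fold. Counted as a single list, 10 of 16 were higher and 4 lower, with a median of 1.004, which hides the split.

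Red cell transcripts set the Ad-Med1 day 3 array apart from the other 3. Hba-a1, an alpha globin, had 14.11 at day 5 and 9.10 at day 3 after Ad-Med1, beside 14.06 and 14.63 after Ad-LacZ. Hbb-bs, a beta globin, had 14.74 at day 5 and 10.15 at day 3, beside 14.23 and 14.61 after Ad-LacZ. Hbb-bt, another beta globin, had 14.46 and 9.67 with both Ad-LacZ arrays likewise high. These transcripts were 32.2-fold (Hba-a1), 24.1-fold (Hbb-bs) and 27.7-fold (Hbb-bt) higher at day 5, with the Ad-Med1 day 3 array low and the other 3 arrays alike; globin genes are near-identical, so a probe may read several. Alas2, the erythroid enzyme that starts haem synthesis, was 3.05-fold higher and Slc4a1, the band 3 anion exchanger, at least 2.54-fold. Erythroid genes outside that block were level, with Klf1 at 0.15, Fech at 0.23 and Car1 at -0.02. Summed linear signals of the 11 genes were 72835 at day 5 and 5717 at day 3 after Ad-Med1, and 56489 and 80303 after Ad-LacZ. Whether blood left in the tissue entered the leukocyte values above was not tested. Platelet markers ran the other way, with 3 of 4 at least 2-fold lower: Ppbp 3.26-fold, Pf4 3.16-fold and Tubb1 at least 2.08-fold.

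Cells of the sinusoid wall and of the bile ducts differed little as lists. Of 25 endothelial genes 4 were 1.5-fold higher and 3 lower, with a median of -0.09. Lyve1 was 2.25-fold and Cdh5 2.05-fold higher, and Wnt2 1.71-fold lower, while Stab1 was 1.93-fold lower by its brightest probe and 0.35 by another. Among 21 stellate cell and matrix genes Vim, the intermediate filament of mesenchymal and blood cells, was 3.91-fold higher and Acta2, smooth muscle actin, 1.55-fold lower; Des lay at -0.11 and Col3a1 at -0.27. Of 5 cholangiocyte genes Sox9 alone was past 1.5-fold, at 1.84-fold higher, and it also stands in the fetal list.

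Cholesterol synthesis was lower at day 5. Of 17 genes with a member probe 10 were at least 1.5-fold lower and none was higher, with a median of -0.74. Nsdhl, which removes methyl groups from the sterol ring, had 6.93 at day 5 and 8.35 at day 3 after Ad-Med1, beside 10.18 and 10.64 after Ad-LacZ, 2.69-fold lower. Mvd, the mevalonate decarboxylase, had 6.22 and 7.59, beside 9.09 and 8.83, 2.58-fold lower. Msmo1 and Tm7sf2, later enzymes of the path, were 2.24-fold and 2.19-fold lower, and Fdps, which makes farnesyl diphosphate, 2.02-fold. The day 5 array was the lowest of the 4 in 14 of the 17 genes, and in these examples both Ad-Med1 arrays lay under both Ad-LacZ arrays. Srebf2, the factor that drives the path, was 1.64-fold lower, and Insig1, which holds it back, lay at -0.38.

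Fatty acid synthesis was lower in part. Among 21 lipogenic genes 7 were at least 1.5-fold lower and 2 higher, with a median of -0.47. Elovl6, which elongates palmitate, had 11.54 at day 5 and 13.36 at day 3, 3.52-fold lower, and Pnpla3, a lipase and acyltransferase of lipid droplets, was 2.78-fold lower. Acacb, the mitochondrial acetyl-CoA carboxylase, was 2.29-fold, Acss2, an acetyl-CoA synthetase, 2.07-fold and Fasn, the fatty acid synthase, 1.79-fold lower. Srebf1, a factor that drives these genes, was 1.55-fold higher, Dgat2 lay at -0.03 and Pparg at -0.02. Of 33 PPARalpha targets and oxidation genes 4 were 1.5-fold higher and 3 lower, with a median of -0.13. Fgf21, a hormone of the fasted liver, was 2.51-fold higher and Plin4, a lipid droplet coat protein, 2.47-fold, whereas Pdk4 was 1.66-fold lower and Ppara itself lay at 0.05.

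Bile acid and xenobiotic genes had no common direction. Of 24 bile acid genes 3 were 1.5-fold higher and 3 lower (2 at the bound). Abcc4 and Abcc3, basolateral exporters that rise in cholestasis, were 3.54-fold and 1.84-fold higher, and Cyp7b1, of the alternative synthesis path, 3.48-fold. Cyp7a1, the rate-limiting enzyme of the classical path, had 10.69 at day 5 and 10.86 at day 3, and Klb, the coreceptor of FGF15, was 2.04-fold lower. Of 63 xenobiotic genes 9 were higher and 10 lower, with a median of 0.02. Among the higher ones were the glutathione transferases Gstp2 at 2.20-fold and Gsta1 at 1.96-fold. Among the lower ones were the cytochrome Cyp2c39 at 3.56-fold, the carboxylesterase Ces1g at 2.38-fold and another glutathione transferase, Gstt3, at 1.85-fold. Cytochrome and sulfotransferase genes have near-identical copies, so that a probe may read several of them.

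NRF2 targets, the antioxidant and detoxifying genes, had 9 of 18 at least 1.5-fold higher and none lower, with a median of 0.56, and they share 5 genes with the xenobiotic list. Cbr3, a carbonyl reductase, had 11.82 at day 5 and 9.01 at day 3 after Ad-Med1, beside 6.82 and 6.84 after Ad-LacZ, 7.01-fold higher. Hmox1, haem oxygenase, had 9.47 and 7.44, beside 7.17 and 7.09, 4.07-fold higher. Nqo1 was 2.06-fold and Srxn1 1.89-fold higher. The transcript of the factor itself, Nfe2l2, lay at -0.19, and Prdx1 at -0.23. The Ad-LacZ pair had a median of 0.53 for this list, although its Cbr3 and Hmox1 were level.

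Targets of ATF4, which answers amino acid shortage and ER stress, were 1.5-fold higher in 8 of 18 genes (7 at the bound) and lower in none. Asns, asparagine synthetase, had 10.39 at day 5 and 7.51 at day 3, beside 6.85 and 7.79 after Ad-LacZ, 7.34-fold higher. Nupr1, a stress-induced chromatin protein, was 4.74-fold, Psat1, of serine synthesis, 2.56-fold and Chac1, which degrades glutathione, 2.22-fold higher. Ddit3 (CHOP) at -0.09, Trib3 at 0.21 and Atf4 at 0.18 did not follow. Among 19 ER chaperones and unfolded protein genes 10 were higher (9 at the bound) and none lower, with a median of 0.59. Creld2 was 2.64-fold higher, Sdf2l1 2.47-fold, Calr (calreticulin) 2.21-fold and Hspa5, the chaperone BiP, 1.55-fold, while Xbp1 lay at -0.32. Immediate early and regeneration genes were 1.5-fold higher in 13 of 23 (10 at the bound) and lower in none, with a median of 0.67 (0.53 at the bound). Of the 23, 4 entered through day 5 alone. Fos was 2.93-fold, Igfbp1 2.76-fold, Klf2 2.31-fold, Junb 2.20-fold and Egr1 1.74-fold higher, and Dusp1 (-0.03), Stat3 (-0.15) and Met (0.05), the receptor of hepatocyte growth factor, were level.

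Glucose metabolism was mixed, with 6 of 27 genes 1.5-fold higher and 3 lower. Hk3, a hexokinase of myeloid cells, was 5.31-fold and Pkm, the pyruvate kinase of proliferating and blood cells, 2.95-fold higher. Glycogen genes were higher as well, with the glycogen synthase Gys2 at 1.80-fold and the glycogen-targeting phosphatase subunits Ppp1r3c and Ppp1r3g at 2.46-fold and 2.44-fold. The hepatocyte enzymes G6pc, Pklr and Pck1 lay at -0.45, -0.23 and 0.52. Amino acid breakdown had 6 of 33 genes lower and none higher, with a median of -0.27: Bhmt, which remethylates homocysteine, was 2.45-fold lower, and the tryptophan enzymes Haao and Kmo were 1.91-fold and 1.88-fold lower, while Arg1 (-0.05) and Cps1 (0.08) of the urea cycle were level. Pericentral genes included 5 of 18 that were lower and none higher, among them Glul, glutamine synthetase, at 2.23-fold, and the Wnt targets Sp5 at least at 2.59-fold and Axin2 at 1.71-fold. Periportal genes had 1 of 15 higher (Ctsc) and 2 lower (Gldc, Alb).

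Several large groups moved little. Plasma proteins of hepatocytes had 2 of 56 genes 1.5-fold higher and 3 lower, with a median of -0.06. The exceptions included Apoa4, an apolipoprotein, at 2.99-fold lower, and Serpina7, the thyroxine-binding globulin, at 2.65-fold higher. Of 28 acute phase genes 4 were higher and 1 lower: Saa1 lay at -0.31, Hp (haptoglobin) at 0.24, Cd14 was 2.29-fold higher and Orm2 2.09-fold lower. Oxidative phosphorylation had 2 of 50 genes lower and a median of -0.19, cytosolic ribosomal proteins 1 of 50 higher (Rpl22) and a median of 0.13, and ribosome biogenesis 2 of 28 higher and 2 lower with a median of 0.04. The iron list had a median of 0.02; Hmox1 was higher, as given above, and Id1, a target of BMP signals, was 2.66-fold lower. The circadian list had 1 of 16 higher (Per2) and 3 lower, with Nr1d1, the REV-ERBalpha repressor, at 2.29-fold lower. Fetal and tumour markers had 6 of 11 higher and 2 lower. Igf2bp3, an oncofetal RNA-binding protein, was 4.003-fold and Igf2 2.14-fold higher, whereas Afp, alpha-fetoprotein, was detected at day 3 alone and was at least 1.71-fold lower.

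Transcripts of the sex chromosomes differed between the arrays. Eif2s3y, a gene of the Y chromosome, was detected on the Ad-Med1 day 5 array (10.54) and not at day 3 (4.64), and after Ad-LacZ it was detected at day 3 (9.52) and not at day 5 (4.65), so that it was at least 20.03-fold higher at day 5 after Ad-Med1. Kdm5d, also Y-linked, was detected on the Ad-Med1 day 5 array alone (7.23), and Uty read 6.93 at day 5 and 6.32 at day 3 after Ad-Med1, beside 5.25, not detected, and 7.39 after Ad-LacZ. Xist, the RNA that coats the silenced X, gave signal with all 4 probes on both Ad-Med1 arrays and on the Ad-LacZ day 5 array, and with none on the Ad-LacZ day 3 array. Its probe ILMN_3022688 had 9.51 at day 5 and 11.17 at day 3 after Ad-Med1, and 8.15 and 5.31 after Ad-LacZ. Probes ILMN_1224091 and ILMN_2475156 were instead highest on the Ad-LacZ day 5 array, at 12.15 and 12.28. After Ad-Med1 they read 7.52 and 7.61 at day 5, and 8.64 and 8.42 at day 3. All 4 probes were lower at day 5 than at day 3 after Ad-Med1. The Ad-Med1 day 5 array thus held both Xist and Y-linked RNA, and the day 3 array Xist with Uty near the detection limit. Day and the sex of the mice cannot be told apart in this comparison.

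Liver genes that differ between the sexes differed between the days too, and the part of the animals' sex in this was not tested. Of 22 male-biased genes 13 were higher at day 5 by 1.5-fold or more (12 at the bound) and none lower, with a median of 0.98. Hsd3b5, a steroid dehydrogenase of male liver, had 10.16 at day 5 and 6.33 at day 3 after Ad-Med1, beside 11.004 and 13.25 after Ad-LacZ, 14.2-fold higher. Cyp4a12b had 10.13 and 6.58, beside 8.48 and 11.74, 11.7-fold higher. Bcl6, a repressor that holds down female-biased genes, was 5.01-fold higher, and Cyp4a12a and the major urinary protein Mup20 were 3.14-fold and 2.91-fold higher, while Cyp2d9 (0.02) and Mup3 (0.01) were level. In the Ad-LacZ pair, whose day 5 array had no detected Y-linked RNA, 11 of the 22 were at least 1.5-fold lower at day 5. Only 3 were 1.5-fold higher there, and the median was -0.54. The share of all genes past 1.5-fold was not computed for the Ad-LacZ pair. At 2-fold, 12.2% of its genes were higher at day 5 and 6.51% lower. Hsd3b5, Cyp4a12b, Bcl6 and Cyp4a12a were among the lower, and Mup20 (1.71), Serpina1e (1.498) and Ugt2b1 (1.02) were higher. Of 17 female-biased genes 7 were lower and none higher. In the Ad-LacZ pair 13 of the 17 were 1.5-fold higher at day 5 and 1 lower, with a median of 2.63. Only 8 of them were detected on its day 3 array. Sult2a2, a sulfotransferase of female liver, had 10.12 at day 5 and 12.66 at day 3, beside 12.13 and 4.86, not detected, after Ad-LacZ, and was 5.81-fold lower. Sult2a1 was at least 2.57-fold and Nnmt 2.52-fold lower; Cyp2b9 (-0.44) and Cyp2a4 (0.14) differed less. Cyp7b1, given above with the bile acid genes, is male-biased, and Cyp2c39, given with the xenobiotic genes, is female-biased.

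**Figure D3:**
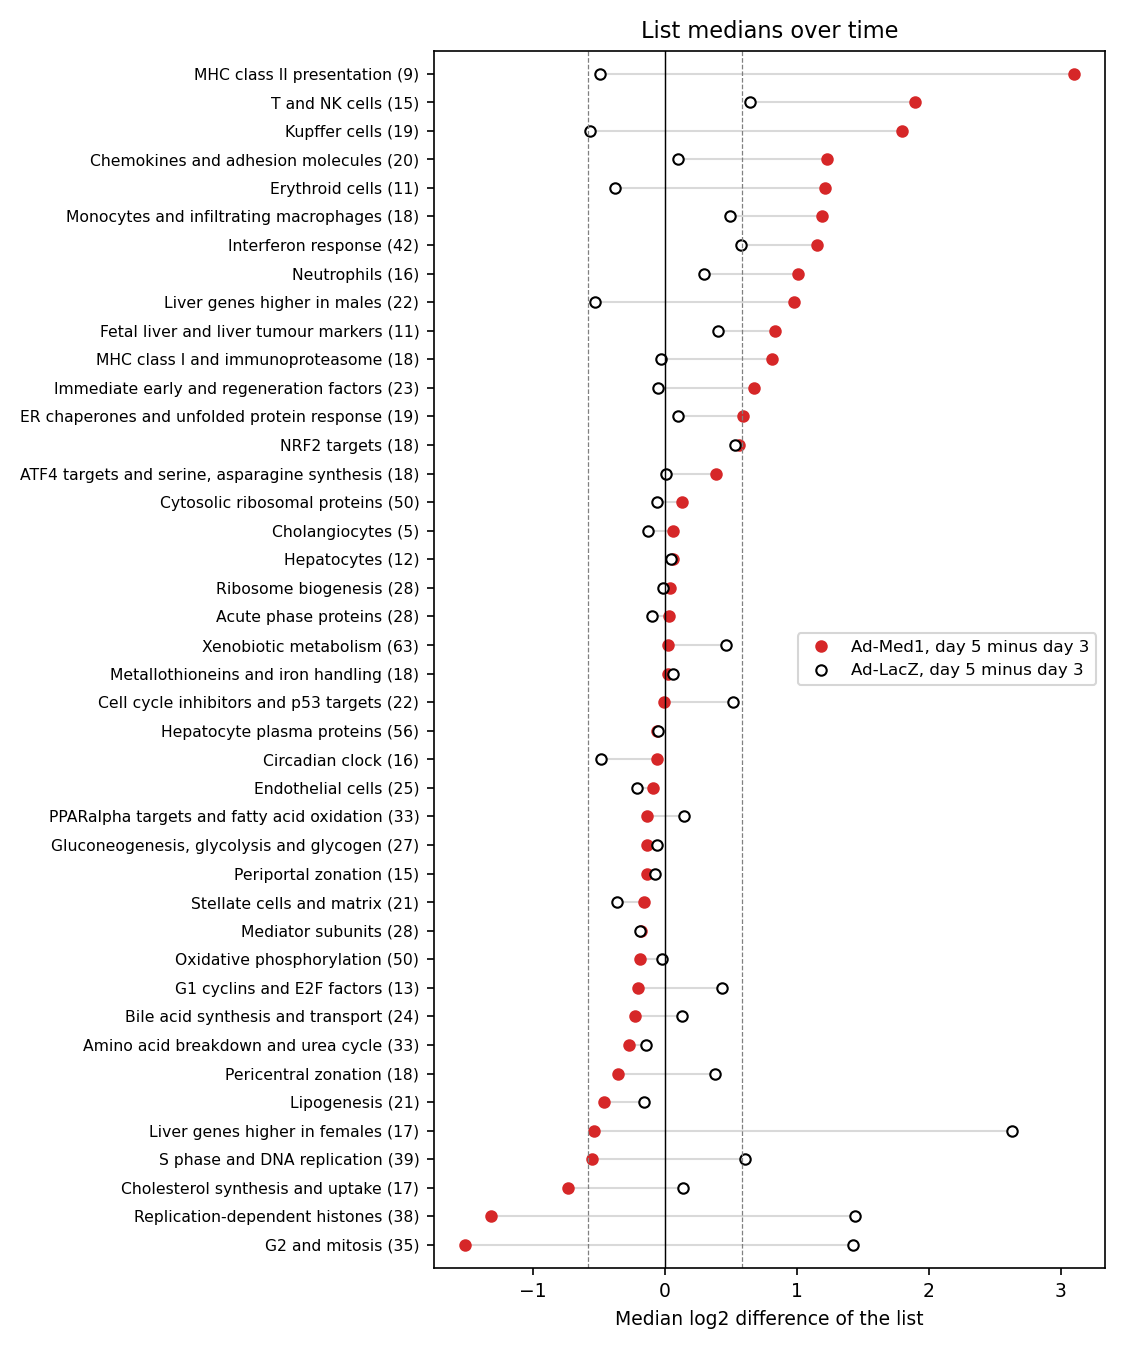
Median log2 difference of each gene list with at least 5 measured genes (their number in brackets), day 5 minus day 3, after Ad-Med1 (filled) and after Ad-LacZ (open); dashed lines mark 1.5-fold. MHC class II has the highest Ad-Med1 median (3.10) and G2 and mitosis the lowest (-1.52), and the 2 viruses lie on opposite sides of 0 for mitotic and histone genes.

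The Ad-LacZ pair covers the same days and shares no array with the Ad-Med1 pair. Of 8627 genes detected on an Ad-LacZ array 1051 were 2-fold higher at day 5 (12.2%) and 562 were 2-fold lower (6.51%), larger shares than the 5.06% and 2.91% after Ad-Med1. The Ad-LacZ day 3 array had the lowest mean intensity (350.2) and the fewest detected probes (12899) of the 4. In that pair 10 of 50 oxidative phosphorylation genes were 1.5-fold higher at day 5 and none lower, with Atp5a1 at 2.85, although their median was -0.02. The share of all genes past 1.5-fold was not computed for the Ad-LacZ pair, so that count cannot be set against it. The part of the Ad-LacZ day 3 array in the Ad-LacZ differences was not tested. Over the 9300 genes the standard deviation of the differences was 0.60 after Ad-Med1 and 0.88 after Ad-LacZ. Those genes were kept by detection on an Ad-Med1 array alone, so signals not detected on either Ad-LacZ array stay in the second value. Between viruses the time differences correlated at -0.16 across genes, and at -0.15 over the 7191 genes detected on all 4 arrays; genes are not independent replicates, and this is a description. Genes 2-fold lower at day 5 after Ad-Med1 and 2-fold higher at day 5 after Ad-LacZ numbered 100, which is 36.9% of the 271 and 9.51% of the 1051. Those 2-fold higher at day 5 after both viruses numbered 65, which is 13.8% of the 471 and 6.18% of the 1051.

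Which array made a difference also varied. Among the 471 higher genes the Ad-Med1 day 5 array was the highest of the 4 in 83.9% and the day 3 array the lowest in 53.5%, against 23.5% and 19.1% of all genes. Among the 271 lower genes the day 3 array was the highest in 80.1% and the day 5 array the lowest in 28.8%, against 25.5% and 22.8% of all genes. As the genes were picked by day 5 against day 3, these shares are in large part set by that choice. Chrna4, a nicotinic receptor subunit and the gene with the lowest value of the set when undetected signals are put at their bound, had 6.43 at day 5 and 9.27 at day 3 after Ad-Med1, beside 8.40 and 7.49 after Ad-LacZ, 7.14-fold lower; it belongs to none of the gene groups above. No difference between the time courses of the 2 viruses was tested, as each rests on a pair of arrays.

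**Figure D4:**
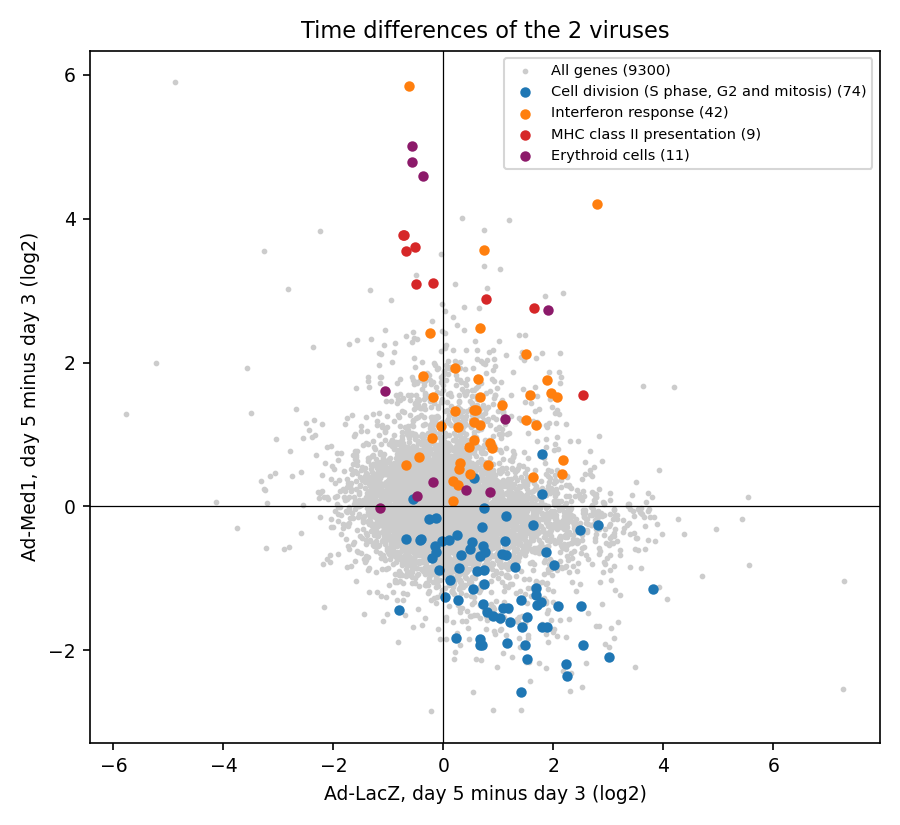
Each point is 1 gene, with its day 5 minus day 3 log2 difference after Ad-Med1 (vertical axis) and after Ad-LacZ (horizontal axis); colours mark 4 gene groups. Cell division genes lie mostly in the lower right, below 0 after Ad-Med1 and above 0 after Ad-LacZ.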

How the data were processed

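Liver RNA of 4 mouse groups was measured on 1 Illumina array each. Trizol extraction, a column clean-up with DNase and biotin labelling preceded hybridisation, per the labels' protocols. The authors deposited a non-normalised table of linear intensity per probe, per the file headers. Its second kind of column is a detection p-value, per the file headers, and its values are multiples of 1 over 936. The authors' series values were identical to those intensities (largest difference 0), with medians of 164 and 153 (Ad-Med1, day 5 and day 3) and 100.4 and 94.1 (Ad-LacZ, day 5 and day 3), so their scale is linear and they are not centred. Scanner software and bead summary are not stated in the sources used.

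Intensities were normalised over all 4 arrays with neqc of limma 3.58.1 in R 4.3.3, which infers background from detection p-values, runs normexp (offset 16), equalises quantiles and takes log2. It was checked on simulated data in which only bright probes were changed, so the check does not cover the folds of dim genes. Python 3.11.15, numpy 2.4.6, pandas 2.3.3 and matplotlib 3.10.9 did the rest. Gene names came from the platform's annotation and were brought up to date with RefSeq's gene table; 34807 probes had a gene identifier found there, and 34885 probes had 1 symbol, 18 several and 10378 none. A gene was represented by its member probe with the highest mean over the 4 arrays.

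With 1 array a group there is no test, and the number of arrays limits the precision. The 46 gene lists (34 pathways, 12 cell type markers), the comparison and the rule for named genes were chosen with earlier results of these data known; 136 of 1449 list members could not be named on the array. Named were the 10 highest and 10 lowest genes by bound, up to 6 genes at least 1.5-fold apart per list, all Med1 probes, sex-linked transcripts, defining markers and members that did not move. A set of 8 alternatives was tried.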

Additional observations from a re-analysis of the deposited data

Results flagged for a closer look

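The following values were picked out because the Ad-Med1 pair and the Ad-LacZ pair moved in opposite directions between day 3 and day 5. The limit was 1.5-fold for medians of lists with at least 5 measured genes, and 2-fold for genes. Only the 10 highest and 10 lowest genes by bound were searched, so the genes below are not all that meet the limit. Aurka, Cyp4a12b and Clec4f, given above, are among those left out. Of genes detected on an Ad-LacZ array, 100 were 2-fold lower at day 5 after Ad-Med1 and 2-fold higher after Ad-LacZ. The reverse held for 48. With 1 array on each side the difference between the viruses was not tested. All values below are day 5 minus day 3 on the log2 scale, Ad-Med1 first. The median of the G2 and mitosis list was -1.52 after Ad-Med1 and 1.42 after Ad-LacZ, and that of the replication-dependent histones -1.32 and 1.44. On the Ad-LacZ day 3 array 16 of the 35 mitotic genes and 30 of the 38 histone genes were detected. In the mitotic list Cdca3 had -2.58 and 1.42 and Plk1 -2.36 and 2.24; outside the lists Cdca2 had -2.25 and 1.87 and Arhgef39 -2.56 and 2.29. Neither of these was detected on the Ad-LacZ day 3 array, and with that signal at its bound their Ad-LacZ differences were 1.67 and 0.90, the second under 2-fold. The histone genes H3c6 (-2.52 and 2.52), H2bc21 (-2.32 and 2.32) and H3c4 (-2.28 and 2.18) did likewise. The sex-linked gene Eif2s3y had 5.90 and -4.87 (4.32 and -3.11 with undetected signals at their bound), and the sex-biased genes Hsd3b5 and Sult2a2 had 3.83 and -2.24, and -2.54 and 7.27 (5.35 at the bound). Mpo, of neutrophil precursors, had -2.83 and 1.41, but neither Ad-LacZ array detected it, and its second value lies within the background.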

How the results depend on the processing

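No paired analysis was possible because each group holds 1 array. Under all 8 alternatives 17 of the 18 list medians past 1.5-fold kept their sign, and so did 205 of the 207 named genes. The share of higher genes among those 2-fold apart stayed between 58.9% and 67.5% (63.5% as reported), and the median of all genes between -0.05 and -0.01. Without background correction 178 genes were 2-fold higher and 114 lower, and the medians were 2.45 for MHC class II, 0.85 for T and NK cells, 0.90 for Kupffer cells and 0.45 for erythroid cells. With the authors' series values, centred on their median difference, 278 genes were higher and 134 lower, and the T and NK median was 1.23. When a probe had to be detected on both Ad-Med1 arrays, 278 genes were higher, the T and NK median was 0.20, the erythroid median 0.35 and the median of sex chromosome transcripts turned to -0.53, as the Y-linked genes drop out. With undetected signals raised to the lowest detected one, the T and NK median was 0.94 and the erythroid median 0.35, and Timp1 turned to -0.090. Taking the median over all member probes turned Stab1 to 0.22. Dim genes limit the comparison: their folds depend on how background is removed, and no spread between animals was measured.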

Other observations

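Genes outside the lists added to the same pictures and were chosen after their values were seen. On the lower side stood further parts of the spindle and centromere. Dlgap5, a spindle protein, was detected at day 3 alone and was at least 4.58-fold lower at day 5 after Ad-Med1. Ckap2l, a spindle pole protein, had 6.94 at day 5 and 9.10 at day 3, 4.47-fold lower. The kinesins Kif2c, Kif20b and Kifc1 were 4.10-fold, 3.41-fold and 3.36-fold lower, and the centromere proteins Cenpi, Cenpp and Cenph 3.39-fold, 3.00-fold and 2.89-fold. On the Ad-LacZ day 3 array none of these 8 genes was detected. Dmbt1, a mucosal scavenger protein, was detected on the Ad-Med1 day 3 array alone and was at least 3.84-fold lower at day 5.

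On the higher side, Gbp10 and Gvin1, large GTPases of the interferon response, had 9.81 and 11.50 at day 5 and 6.51 and 8.73 at day 3, 9.88-fold and 6.83-fold higher. Cd274 (PD-L1), the ligand that restrains T cells, had 8.72 and 6.54 after Ad-Med1, beside 7.62 and 7.01 after Ad-LacZ, 4.51-fold higher. Slpi, an inhibitor of neutrophil proteases, was 7.81-fold higher. General leukocyte genes followed, with Cd52 5.54-fold, Fcgr4 4.41-fold, Ikzf1 3.80-fold, Tyrobp 3.77-fold and Coro1a 3.36-fold higher. The heat shock genes Hspa1a and Hspa1b, near-identical copies, were 2.88-fold and 2.44-fold higher.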
